A study of Mus musculus with 9 samples.

Results

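The comparison set cardiomyocytes given a control vector against cardiomyocytes labelled only as a blank, and it covered all genes measured well enough to test. The negative vector control (3 libraries) was cells with the AAV9 control vector, an adeno-associated virus capsid that carries DNA into heart muscle efficiently. The blank control (3 libraries) is named as a blank, and what the blank cells received was not described. Both groups were RNA from isolated mouse cardiomyocytes, extracted with TRIzol and depleted of ribosomal RNA before directional libraries were sequenced. Another group of the same series, with AAV9 overexpression of the long noncoding RNA Firre, supplied side-by-side values only. The strain, age and sex of the mice, the vector's promoter and cargo, its dose and the time after vector were not given in the sources used here. Of 55487 gene identifiers counted, 15179 had at least 10 counts in 3 or more of the 6 libraries and were tested. Of the 40308 others, 28616 had no count in any of the 6 libraries. A further check found 33 tested genes that reached 10 counts only in libraries of 1 group.

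A control vector is included in such designs to show what the capsid and the carried DNA do to a cell apart from the gene under study. Cells can sense viral DNA and double-stranded RNA and answer with interferons, which switch on interferon-stimulated genes. Macrophages in heart tissue also take up particles and make chemokines, complement proteins and interleukins. Isolated cardiomyocyte preparations can hold fibroblasts, endothelial cells, macrophages and epicardial cells beside the muscle cells.

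Cardiomyocyte markers were abundant in both groups, and markers of several other heart cell types were also detected. All 10 cardiomyocyte markers were tested, and their summed level was 32011 to 33131 CPM, counts per 1e6 counts in genes, in the blank control and 31999 to 34568 CPM in the negative vector control. Myh6, the main adult heart myosin, was at 15277, 15222 and 16483 CPM in the blank libraries and 16651, 14651 and 15273 CPM in the vector libraries. The summed level of 18 fibroblast markers was 12302 to 12840 CPM in the blank control and 12195 to 12525 CPM in the vector control. With the blank control first, it was 4148 to 4452 and 3896 to 4329 CPM for 14 smooth muscle and pericyte markers. It was 1882 to 1985 and 1837 to 1859 CPM for 20 endothelial markers. For 19 macrophage markers, 3 of them under the count filter, it was 128 to 145 and 101 to 113 CPM. Markers of lymphocytes, neutrophils and erythroid cells had no member that passed the count filter. Libraries held 15591542 to 20868139 counts in genes, and mitochondrially encoded genes took 6.23% to 6.80% of them in the blank control and 5.89% to 6.62% in the vector control. In these bulk samples, fewer cells of a type and less RNA per cell cannot be told apart.

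Between the 2 controls, 13 of 15179 genes passed edgeR's quasi-likelihood test at a Benjamini-Hochberg adjusted p under 0.05, which is 0.0856% of the genes tested. In the negative vector control 12 of them were lower (0.0791%) and 1 was higher (0.00659%). None of the 13 changed by 2-fold or more. The lower genes included products of myeloid cells (Ccl6, Adam8, Il1rn, Mpeg1, Mmp12), vessel genes (Vwf, Gja4, Mgp) and interferon-stimulated genes (Irf7, Ifitm3). Leaving out each library in turn gave 2 calls (without vector replicate 2) to 46 calls (without blank replicate 2), with 4 without blank replicate 1 and 8 without vector replicate 1. The sample titles call the libraries biological replicates, but whether they came from separate mice or cultures is not stated. The p-values rest on the spread between libraries of a group, and whether that spread covers differences between mice is not known. At an unadjusted p under 0.05, 1206 genes (7.95%) passed, 567 with a higher and 639 with a lower level in the vector control. In 2001 genes (13.2%) the 3 libraries of a group all lay on one side of the other 3, 1038 of them higher (6.84%) and 963 lower (6.34%) in the vector control.

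**Figure D1:**
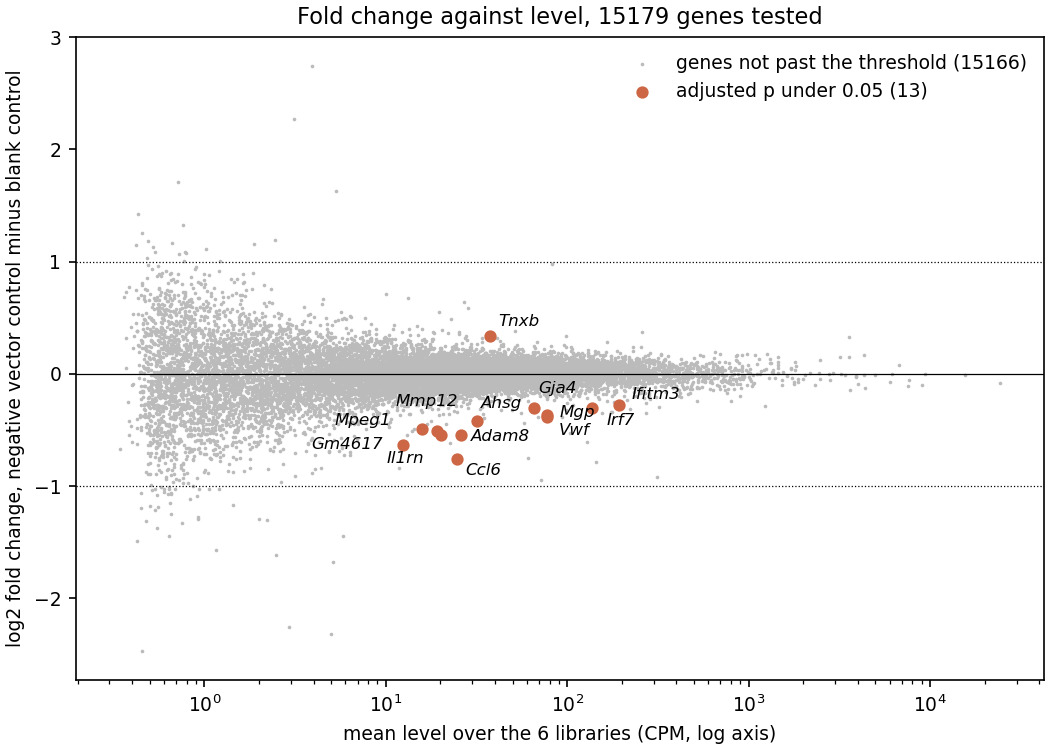
Each point is a tested gene, with its mean level over the 6 libraries in CPM on a log axis and its log2 fold change of the negative vector control over the blank control; dotted lines mark a 2-fold difference and orange points the 13 genes past the threshold. The spread narrows as the level rises, and the 13 genes all lie inside the dotted lines.

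Most genes were within a narrow band around no difference. The log2 fold change had a median of 0.00, and its 5th and 95th percentiles were -0.34 and 0.29. How firmly a gene can be placed depended on its level. For the 2106 genes with a mean over 100 CPM the median standard error (SE) was 0.05, and 99.7% of them had a 95% confidence interval inside a 2-fold change in either direction. Between 10 and 100 CPM (7484 genes) the share was also 99.7%, and from 1 to 10 CPM (4206 genes) it was 90.3%. Under 1 CPM (1383 genes) the median SE was 0.43 and the share 22.4%, so for most genes in that range the interval reached past a 2-fold difference.

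A fold of 2 or more was found for 63 genes at any level, and for 12 of the 12788 genes that averaged 2 CPM or more in either group. None of these passed the test. The genes named next were chosen after their values were seen. Gm10705, a processed pseudogene, was at 11.8, 9.91 and 3.11 CPM in the blank libraries and 1.61, 0.908 and 2.48 CPM in the vector libraries (adjusted p = 0.550, edgeR). Its groups did not overlap, but the third blank library was nearer to the vector libraries than to the other blank libraries. Entpd4b, which encodes a nucleotide-cleaving enzyme, was at 0.518, 0.690 and 2.02 CPM against 5.88, 8.65 and 0.982 CPM (adjusted p = 0.691). The third vector library lay below the highest blank library there. Among genes under the 2-fold line, mt-Nd6, a mitochondrially encoded subunit of complex I, was at 733, 266 and 223 CPM in the blank control and 191, 208 and 246 CPM in the vector control, so that 1 blank library stood apart from the other 5.

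Ccl6 changed most among the 13 genes and was lower in the negative vector control. Ccl6 encodes a chemokine made by macrophages and other myeloid cells that draws leukocytes. Its level was 35.1, 29.1 and 29.0 CPM in the blank libraries and 16.5, 20.5 and 18.04 CPM in the vector libraries. The lowest blank library was above the highest vector library. Ccl6 (ENSMUSG00000018927, chr11:83587882-83593087, minus strand, on GRCm38 as for all positions of genes here) fell by 0.76 on the log2 scale (SE 0.09, edgeR adjusted p = 0.000438), from 31.1 ± 3.49 to 18.3 ± 2.02 CPM (SD, n = 3). It stayed past the threshold under all 15 alternative analyses and was the only called gene to do so.

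Other genes known from myeloid cells were also lower. Adam8 (chr7:139978932-139992562, minus strand), a cell-surface protease of activated leukocytes, was at 33.3, 27.3 and 31.8 CPM against 21.3, 21.4 and 20.5 CPM, and it fell by 0.54 (SE 0.08, edgeR adjusted p = 0.00585). The vector libraries were within 1 CPM of each other, and the blank libraries were all higher. Il1rn (chr2:24336853-24351494, plus strand), the natural antagonist of the interleukin-1 receptor, was at 24.97, 22.5 and 24.5 CPM against 14.6, 19.3 and 15.1 CPM, and it fell by 0.55 (SE 0.10, adjusted p = 0.0272). The second vector library was the nearest to the blank control. Mpeg1 (chr19:12460779-12465283, plus strand) encodes perforin-2, a pore-forming protein of macrophages. Its level was 18.05, 18.7 and 18.8 CPM in the blank control and 12.5, 12.9 and 14.01 CPM in the vector control, and it fell by 0.50 (SE 0.09, adjusted p = 0.0344). Mmp12 (chr9:7344381-7369499, plus strand), macrophage elastase, was at 25.4, 19.4 and 22.8 CPM against 15.0, 16.2 and 16.1 CPM, and it fell by 0.51 (SE 0.10, adjusted p = 0.0409). The groups of both genes were apart.

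**Figure D2:**
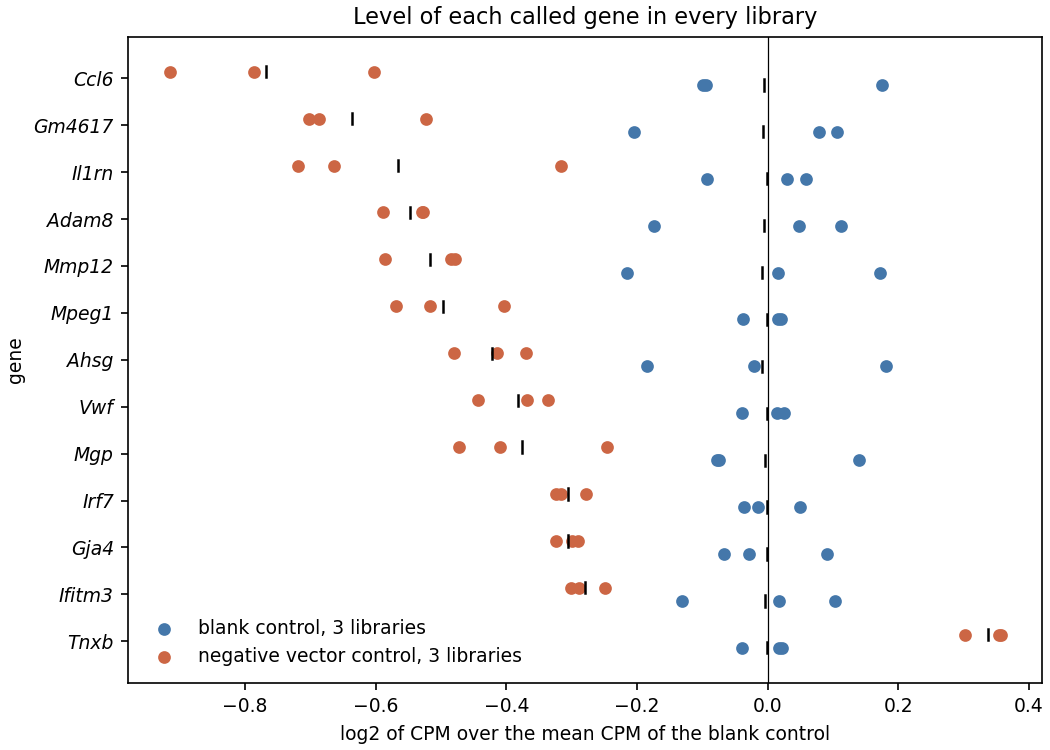
For each of the 13 called genes, points show the 3 blank control and 3 negative vector control libraries as log2 of CPM over the mean CPM of the blank control, and black bars the mean of each group. The groups do not overlap for any of the 13 genes, and Tnxb alone has its vector libraries to the right.

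The bases before the transcription start of Ccl6 and Mmp12 are shown because these are myeloid genes that fell, and because PU.1, the factor that directs macrophage genes, binds short motifs of a known kind. The sequences are 250-base RefSeq windows on GRCm38.p6, each written along the gene's strand, and capitals mark the letters GAGGAAGT, or its reverse complement, used as the PU.1 motif. Mmp12 has a further RefSeq start, which is not shown.
Ccl6 (chr11:83593088-83593337, minus strand): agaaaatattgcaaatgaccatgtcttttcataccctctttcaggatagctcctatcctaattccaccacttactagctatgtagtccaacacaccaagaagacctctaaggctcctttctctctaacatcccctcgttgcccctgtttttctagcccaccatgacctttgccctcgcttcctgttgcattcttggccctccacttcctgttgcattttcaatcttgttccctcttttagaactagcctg
Mmp12 (chr9:7344147-7344396, plus strand): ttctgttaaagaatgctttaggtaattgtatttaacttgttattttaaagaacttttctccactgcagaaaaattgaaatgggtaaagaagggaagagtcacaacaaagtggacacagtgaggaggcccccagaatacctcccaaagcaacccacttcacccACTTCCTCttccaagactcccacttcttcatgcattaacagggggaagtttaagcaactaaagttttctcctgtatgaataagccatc
Windows were found for 10 of the 12 protein-coding called genes, and 1 of them, Mmp12, held the motif on either strand. Of 27025 genes with a window, 2.79% held it. Among 9 macrophage markers with a window, 1 (C1qc) held it. The Ccl6 window does not hold these letters, which says nothing about the factor.

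The macrophage marker list showed the same direction without any single call. All 16 members tested had a log2 fold change below 0, against 7581 of 15179 genes (49.9%), and the median was -0.49. None passed the adjusted test. The groups did not overlap for 8 of the 16, all lower in the vector control, beside 6.34% of all genes, and the same number had an unadjusted p under 0.05, beside 4.21%. Cd163, Aif1 and Cx3cr1 had at most 7 counts in any library and were not tested. In this list and those that follow, members with values were chosen after their values were seen. Lyz2, the lysozyme of myeloid cells, was at 42.8, 35.1 and 41.4 CPM in the blank control and 27.9, 32.8 and 29.98 CPM in the vector control (-0.39, adjusted p = 0.0692). C1qa, a chain of the complement component C1q, was at 3.75, 4.14 and 4.49 CPM against 2.39, 2.25 and 1.96 CPM (-0.91, adjusted p = 0.101). Adgre1, which encodes the macrophage surface protein F4/80, was at 7.25, 8.09 and 8.30 CPM against 5.52, 5.97 and 6.31 CPM (-0.41, adjusted p = 0.418).

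Not every macrophage gene was far from 0. Csf1r, the receptor for the macrophage growth factor CSF1, was at 13.97, 12.8 and 14.8 CPM and 12.1, 13.4 and 14.5 CPM, so its groups overlapped (-0.05, adjusted p = 0.929). Spi1, the gene of PU.1, was at 2.91, 4.29 and 1.96 CPM and 2.50, 2.29 and 2.58 CPM, with all vector libraries inside the range of the blank libraries (-0.33, adjusted p = 0.773). The summed level of all 19 markers, the 3 untested ones included, was 145, 128 and 139 CPM in the blank control and 101, 113 and 109 CPM in the vector control. It moved in the same direction as Ccl6, Adam8, Il1rn, Mpeg1 and Mmp12, and its part in their fall was not tested. Complement genes overlap with this list through C1qa, C1qb and C1qc. Of 15 complement members, 12 were below 0 with a median of -0.14, 7 had groups apart in the lower direction (6.34% of all genes) and none was called. Without vector replicate 3 the median was -0.22. The receptors C3ar1 and C5ar1, which sense the complement fragments C3a and C5a, had values of -0.47 (adjusted p = 0.219) and -0.81 (adjusted p = 0.302), while C1s1, the protease of the C1 complex, was on the other side at 0.22 (adjusted p = 0.498).

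Of the vessel genes, Vwf, Gja4 and Mgp were lower in the negative vector control, while the median of the endothelial marker list was close to 0. Vwf (chr6:125546774-125686679, plus strand), the von Willebrand factor that endothelial cells store and release for clotting, was at 88.6, 84.8 and 88.0 CPM against 67.5, 64.1 and 69.0 CPM. It fell by 0.38 (SE 0.06, edgeR adjusted p = 0.00458). Gja4 (chr4:127311421-127314039, minus strand), the gap junction protein connexin 37 of arterial endothelium, was at 77.0, 69.0 and 70.9 CPM against 57.8, 59.1 and 58.7 CPM. It fell by 0.30 (SE 0.06, adjusted p = 0.0494) and was chosen for mention after its values were seen. Mgp (chr6:136872435-136875823, minus strand), matrix Gla protein, an inhibitor of calcification made by vessel wall cells, was at 96.8, 83.2 and 83.4 CPM against 63.3, 66.1 and 74.1 CPM and fell by 0.37 (SE 0.07, adjusted p = 0.0344). In all 3 genes the lowest blank library was above the highest vector library.

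Of 20 endothelial markers tested, Vwf was the 1 call, 13 were below 0 and the median was -0.04. Without blank replicate 1 the median was 0.01, and without blank replicate 2 it was -0.07. Groups were apart in the lower direction for 6 (6.34% of all genes) and in the higher direction for 1 (6.84%). An unadjusted p under 0.05 was found for 4 in the lower direction (4.21% of all genes) and 0 in the higher (3.74%). Emcn (endomucin) had a value of -0.22 (adjusted p = 0.198), Pecam1 (CD31) of -0.18 (adjusted p = 0.311) and Plvap, a component of endothelial diaphragms, of -0.19 (adjusted p = 0.369). Ptprb, an endothelial receptor phosphatase, had 0.11 (adjusted p = 0.651). The markers were thus on both sides of 0, more of them below it, with Vwf the farthest below.

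A pair of interferon-stimulated genes was called lower, and no member of the list was called higher, though 21 had values above 0. Irf7 (chr7:141262706-141266481, minus strand), the transcription factor that amplifies type I interferon production, was at 157, 148 and 150 CPM in the blank control and 125, 122 and 121 CPM in the vector control. It fell by 0.31 (SE 0.05, edgeR adjusted p = 0.0112), from 152 ± 4.75 to 123 ± 2.08 CPM (SD, n = 3). Ifitm3 (chr7:141009586-141010770, minus strand), a membrane protein that blocks entry of enveloped viruses, was at 228, 194 and 215 CPM against 179, 174 and 173 CPM and fell by 0.28 (SE 0.06, adjusted p = 0.0494). In neither gene did the groups overlap. Of 61 members tested, 2 were called lower and 0 higher, 40 were below 0, and the median was -0.08. Without blank replicate 1 the median was -0.01 and 34 were below 0, without vector replicate 3 it was -0.03, and without blank replicate 3 it was -0.13. Without vector replicate 1, 52 members were below 0. Groups were apart in the lower direction for 5 members, a share close to the 6.34% of all genes, and in the higher direction for 0 (6.84% of all genes). Lgals3bp, a secreted glycoprotein and the next member by p, was at 263, 203 and 224 CPM against 205, 196 and 184 CPM, with overlapping groups (-0.24, adjusted p = 0.505).

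Sensors and signalling proteins for foreign nucleic acid had fold changes near 0. Of 19 tested, none was called and the median was -0.02, with 0.01 without blank replicate 3. Ikbke, a kinase that activates interferon regulatory factors, was at 17.9, 18.4 and 18.9 CPM against 21.1, 20.5 and 21.8 CPM (0.20, adjusted p = 0.564). Samhd1, an enzyme that breaks down deoxynucleotides and restricts viruses, had a value of -0.12 (adjusted p = 0.674), and Myd88, the adaptor of Toll-like receptors, of -0.12 (adjusted p = 0.725). The latter pair had overlapping groups. Antigen presentation genes had a median of -0.09, with 14 of 19 below 0 and no call, and -0.05 without vector replicate 3 or blank replicate 1. Groups were apart in the lower direction for 4 of them (6.34% of all genes), and 3 had an unadjusted p under 0.05 in that direction (4.21%). Their summed level was 1360 to 1586 CPM in the blank control and 1238 to 1280 CPM in the vector control. Of 28 genes for the entry and trafficking of AAV, none was called, the median was 0.01 and the log2 fold changes ran from -0.11 to 0.18.

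Inflammatory genes gave no call, and most had values below 0. Of 33 tested, 21 were below 0, 8 had an unadjusted p under 0.05 in the lower direction (4.21% of all genes) and 1 in the higher (3.74%), and the median was -0.05. It was -0.11 without blank replicate 2 and -0.03 without blank replicate 3 or vector replicate 2. Lcn2, lipocalin-2, an iron-sequestering protein of inflamed tissue, was at 214, 183 and 232 CPM against 176, 158 and 177 CPM (-0.30, SE 0.08, edgeR adjusted p = 0.302). Cxcl5, a neutrophil chemokine, was at 121, 121 and 124 CPM against 114, 102 and 105 CPM (-0.19, adjusted p = 0.302). Il1a, the cytokine that Il1rn opposes, was at 5.05, 4.49 and 6.05 CPM against 3.23, 3.58 and 3.36 CPM (-0.61, adjusted p = 0.303). The groups of these genes were apart, as they were for Ccl6, but their adjusted p-values were not under 0.05. The highest value of the list was that of Cxcl10, a chemokine induced by interferon and listed here with the inflammatory genes, at 1.10, 0.838 and 1.21 CPM in the blank control and 3.17, 1.34 and 1.03 CPM in the vector control, so that 1 vector library held the high value (0.82, adjusted p = 0.609).

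Of the last 3 called genes, Ahsg and Gm4617 were lower and Tnxb was higher. Ahsg (chr16:22891277-22899449, plus strand) encodes fetuin-A, a plasma glycoprotein that binds calcium phosphate. It was at 41.2, 35.8 and 32.0 CPM against 27.3, 26.04 and 28.1 CPM and fell by 0.42 (SE 0.08, edgeR adjusted p = 0.0494). Gm4617 is annotated as a processed pseudogene (chr3:124385667-124385997, plus strand). It was at 15.9, 16.2 and 13.1 CPM against 9.37, 9.27 and 10.5 CPM and fell by 0.64 (SE 0.11, adjusted p = 0.0201). It too was chosen after its values were seen, and how reads were shared with similar sequences elsewhere is not known. Tnxb (chr17:34670535-34719815, plus strand), the matrix glycoprotein tenascin-X of connective tissue, was at 32.2, 33.4 and 33.5 CPM in the blank control and 42.3, 42.2 and 40.7 CPM in the vector control. It rose by 0.34 (SE 0.07, adjusted p = 0.0494), and its call held in 3 of 15 alternatives.

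No other gene passed the threshold in the higher direction. The next by p among named genes were Cmya5, Thy1, Svep1 and Fasn, the last of which is described with lipid synthesis. Cmya5 encodes myospryn, a large protein of the muscle Z-disc. It was at 208, 222 and 207 CPM against 252, 259 and 242 CPM (0.24, SE 0.05, edgeR adjusted p = 0.0662). Thy1, a surface protein of fibroblasts, was at 65.1, 60.0 and 58.9 CPM against 76.7, 73.1 and 73.8 CPM (0.28, adjusted p = 0.0754). Svep1, a secreted matrix protein, was at 38.3, 35.8 and 35.0 CPM against 44.8, 43.2 and 48.4 CPM (0.32, adjusted p = 0.0858). All 3 had groups apart. Thy1 had the highest value of the 18 fibroblast markers, of which 11 were below 0, with a median of -0.03 and no call. Groups were apart for 2 of these markers in the higher direction (6.84% of all genes) and 2 in the lower (6.34%). Adamts5, a protease that cleaves proteoglycans, had a value of 0.25 (adjusted p = 0.142), and Kcne4, a regulatory subunit of potassium channels, of 0.39 (adjusted p = 0.148).

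Epicardial markers had values mostly above 0, and none was called. The epicardium is the mesothelial sheet that covers the heart. Of 13 tested, 11 were above 0, against 50.1% of all genes, and the median was 0.21. Of these genes, 7 had groups apart in the higher direction (6.84% of all genes) and 8 had an unadjusted p under 0.05 (3.74%). Bnc1, a zinc-finger factor of mesothelium, was at 41.3, 36.5 and 36.8 CPM against 47.2, 46.7 and 46.0 CPM (0.29, edgeR adjusted p = 0.142). Msln, mesothelin, was at 33.6, 27.9 and 29.4 CPM against 35.5, 36.8 and 40.7 CPM (0.32, adjusted p = 0.196). Both had every vector library above every blank library. Wt1 and Tbx18, transcription factors of the epicardium, had values of 0.10 (adjusted p = 0.790) and -0.03 (adjusted p = 0.927). The summed level of the list was 525, 493 and 472 CPM in the blank control and 542, 564 and 563 CPM in the vector control.

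**Figure D3:**
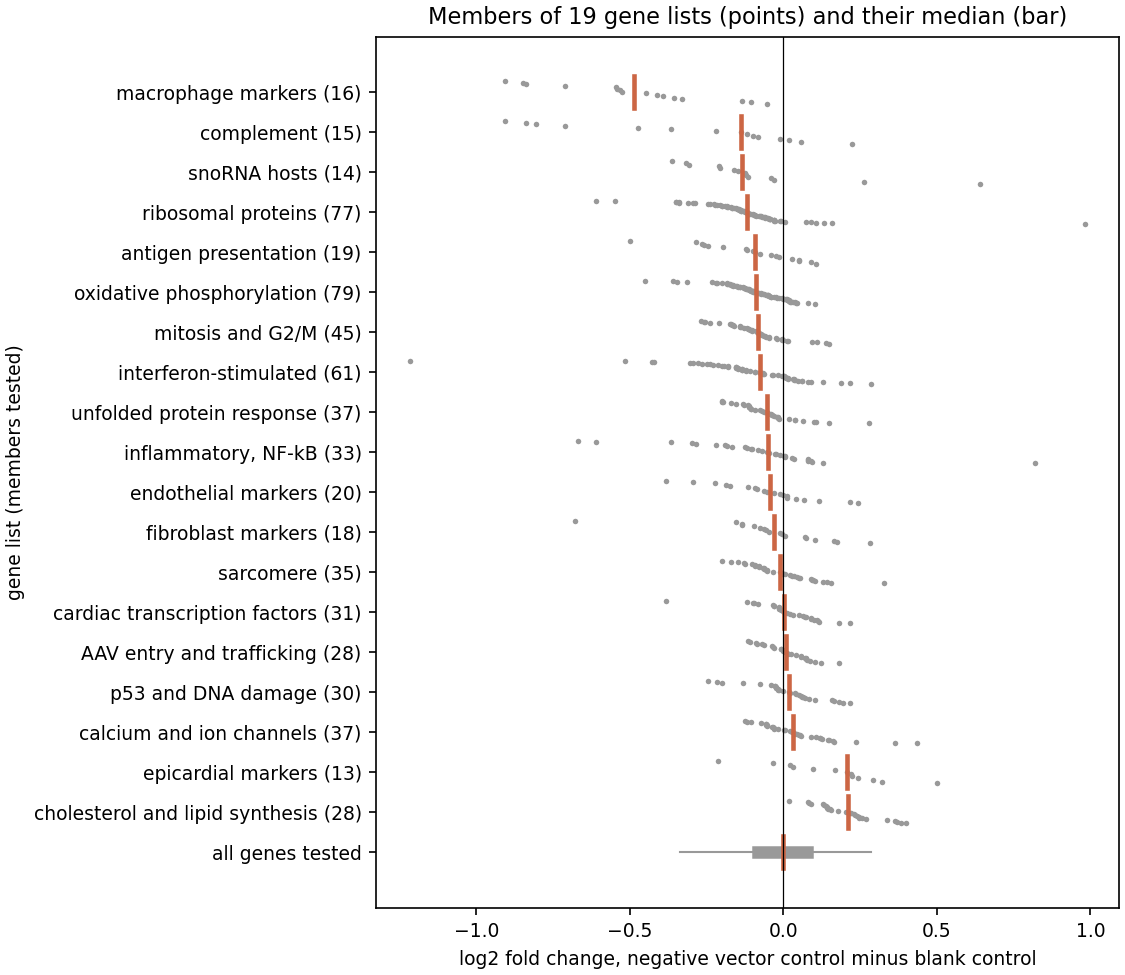
Points are the tested members of 19 gene lists by log2 fold change of the negative vector control over the blank control, and orange bars the medians. The last line gives all genes tested, with the thick bar from the 25th to the 75th percentile and the thin line from the 5th to the 95th. Macrophage markers (median -0.49) lie to the left, and epicardial and lipid synthesis genes (median 0.21 each) to the right.

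Genes of cholesterol and fatty acid synthesis all had values above 0, and 1 vector library stood far above the rest. These enzymes are switched on together by the SREBP transcription factors when sterols are low. All 28 members tested were above 0, the median was 0.21, and none was called. Groups were apart in the higher direction for 8 (6.84% of all genes), and 14 had an unadjusted p under 0.05 (3.74%). The summed level of the list was 2082, 2090 and 2061 CPM in the blank control and 2209, 2813 and 2219 CPM in the vector control, with the second vector library far above the other 2. Without that library the median was 0.10 and 24 of 28 members were above 0. Scd2, a desaturase that makes monounsaturated fatty acids, showed the same pattern at 240, 231 and 204 CPM against 225, 409 and 236 CPM (0.37, edgeR adjusted p = 0.818). Fasn, the fatty acid synthase, was at 232, 236 and 234 CPM against 262, 301 and 263 CPM (0.23, adjusted p = 0.126). Cyp51, the sterol demethylase, was at 85.9, 89.1 and 86.5 CPM against 98.1, 128 and 104 CPM (0.34, adjusted p = 0.219). For Fasn and Cyp51 all 3 vector libraries were above the blank libraries.

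The windows before the starts of Fasn, Cyp51 and Hmgcs1, a synthase early in the sterol pathway, are printed because members of this list lay on one side together. NF-Y, a factor that works with SREBP, binds CCAAT, and capitals mark this motif or its reverse complement in Fasn and Cyp51. In Hmgcs1 capitals mark TCACNCCAC, a form of the sterol regulatory element, and the 3 CCAAT matches of that window are left in lower case. The 250 bases are RefSeq windows on GRCm38.p6 along each gene's strand.
Fasn (chr11:120824548-120824797, minus strand): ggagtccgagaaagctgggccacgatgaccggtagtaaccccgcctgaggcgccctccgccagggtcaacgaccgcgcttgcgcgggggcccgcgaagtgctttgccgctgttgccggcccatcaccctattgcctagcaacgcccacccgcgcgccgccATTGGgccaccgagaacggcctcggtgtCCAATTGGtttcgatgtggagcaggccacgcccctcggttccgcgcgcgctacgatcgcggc
Cyp51 (chr5:4104698-4104947, minus strand): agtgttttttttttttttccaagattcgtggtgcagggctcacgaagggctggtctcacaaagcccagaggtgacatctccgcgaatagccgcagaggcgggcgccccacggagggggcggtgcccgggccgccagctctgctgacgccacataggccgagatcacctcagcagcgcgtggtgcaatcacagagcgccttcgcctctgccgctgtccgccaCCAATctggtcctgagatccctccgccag
Hmgcs1 (chr13:119690101-119690350, plus strand): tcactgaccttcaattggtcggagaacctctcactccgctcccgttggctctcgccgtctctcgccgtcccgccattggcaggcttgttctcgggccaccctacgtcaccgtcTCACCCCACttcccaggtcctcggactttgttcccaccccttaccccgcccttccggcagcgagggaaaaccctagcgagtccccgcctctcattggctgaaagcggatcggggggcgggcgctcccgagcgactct
Of 18 members with a window, 14 (77.8%) held CCAAT on either strand, against 40.2% of tested genes with a window. In Fasn, 2 of the 3 matches lie on opposite strands and share bases. The sterol element form was found in 1 of 18, Hmgcs1, and in 1.22% of all genes with a window. These matches describe the letters and show no binding.

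**Figure D4:**
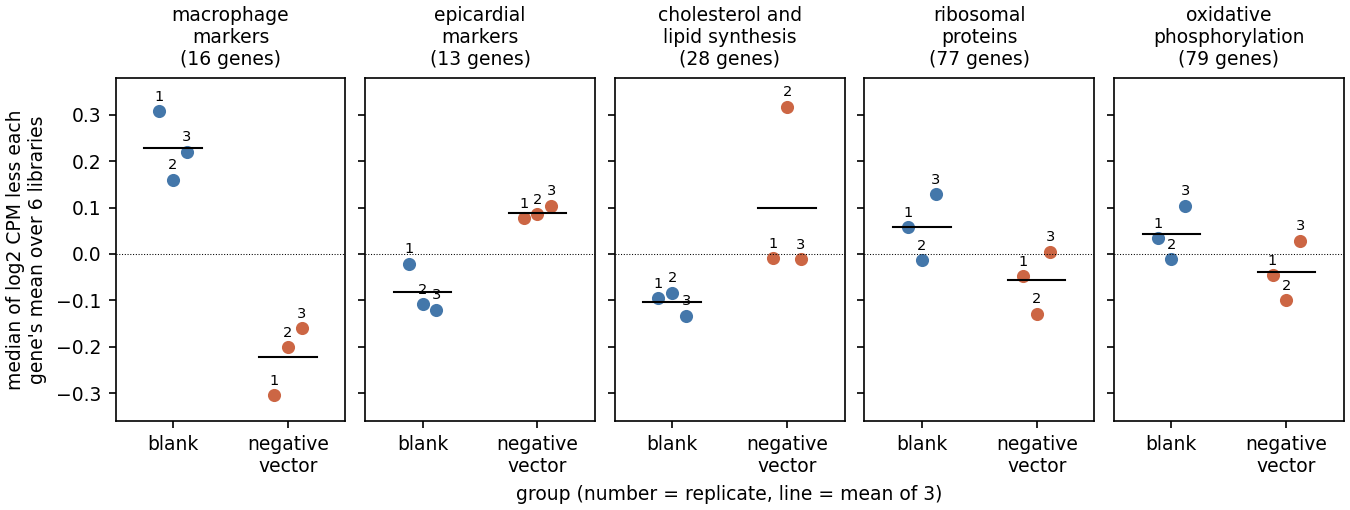
For 5 gene lists, each point is 1 library's median over the list of log2 CPM less that gene's mean over the 6 libraries, numbered by replicate, with a line at the mean of the 3. Vector replicate 2 stands at 0.32 for lipid synthesis while the other 2 vector libraries are at -0.01, and the macrophage medians of the groups are apart.

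Ribosomal protein and respiratory chain genes had medians slightly below 0, as did short genes in general. Of 77 ribosomal protein genes, 70 were below 0 with a median of -0.12, none was called, 31 had an unadjusted p under 0.05 in the lower direction (4.21% of all genes) and 11 had groups apart in that direction (6.34%). Rpl35, of the large subunit, was at 608, 515 and 572 CPM against 472, 444 and 513 CPM (-0.24, edgeR adjusted p = 0.217). Of 79 nuclear genes of oxidative phosphorylation, 62 were below 0 with a median of -0.09, none was called and 12 had groups apart in the lower direction (6.34% of all genes). An unadjusted p under 0.05 was found for 23 of them in the lower direction (4.21% of all genes) and 0 in the higher (3.74%). The median of these 79 genes was -0.05 without blank replicate 3 and also without vector replicate 2. Cox6a2, the muscle form of a cytochrome oxidase subunit, was at 318, 260 and 276 CPM against 246, 229 and 259 CPM (-0.22, adjusted p = 0.358), and the lowest blank library was just above the highest vector library. The median exonic length was 1781 bases in the ribosomal list and 1718 bases in the respiratory list, against 4165 bases for all genes tested. Among protein-coding genes with at least 2 CPM, the median log2 fold change was -0.12 for 201 genes up to 1 kb, 0.00 for 2979 genes of 4 to 6 kb and 0.05 for 1283 genes over 10 kb. With this length trend removed from each library, an alternative added after seeing the data, the medians were -0.08 for ribosomal proteins and -0.04 for oxidative phosphorylation. With it removed, Mgp (adjusted p = 0.0628), Ifitm3 (0.168), Gja4 (0.110), Ahsg (0.0984) and Tnxb (0.110) were no longer past the threshold. The same step left macrophage markers at -0.43, epicardial markers at 0.19 and lipid synthesis at 0.19.

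**Figure D5:**
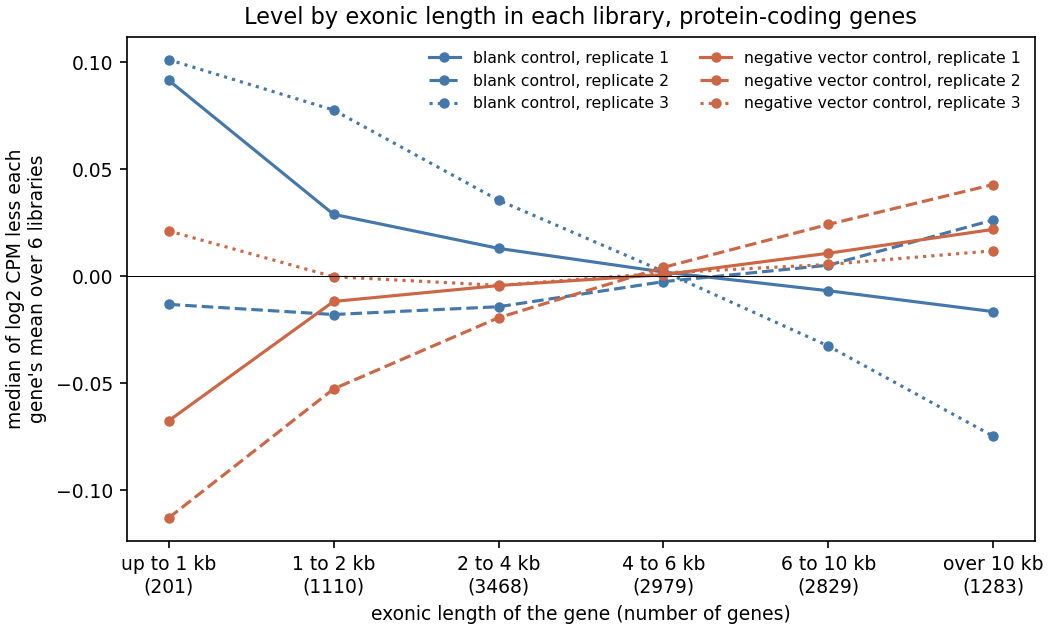
Lines join, for each of the 6 libraries, the median over protein-coding genes of log2 CPM less the gene's mean over the libraries, by exonic length. In the shortest class, blank replicates 1 and 3 are at 0.09 and 0.10 and vector replicates 1 and 2 at -0.07 and -0.11, while blank replicate 2 (-0.01) and vector replicate 3 (0.02) lie between them.

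Lists of genes of the contractile cell itself had medians close to 0, with members apart on both sides in 2 of the 3 lists. Of 35 sarcomere genes none was called, 20 were below 0 and the median was -0.01, with -0.05 to 0.02 when single libraries were left out. Groups were apart in the higher direction for 6 (6.84% of all genes) and in the lower for 4 (6.34%). An unadjusted p under 0.05 was found for 3 in the higher direction (3.74% of all genes) and 4 in the lower (4.21%). Ttn, the giant spring protein of the sarcomere, had 0.33 (adjusted p = 0.583, edgeR), and Tnnc1, cardiac troponin C, had -0.17 (adjusted p = 0.351). Ttn has a long and Tnnc1 a short transcript, and any part of length in their values was not tested. Calcium handling and ion channel genes had a median of 0.03 over 37 members, with no call. Groups were apart in the higher direction for 5 of them (6.84% of all genes) and in the lower for 2 (6.34%). An unadjusted p under 0.05 was found for 5 in the higher direction (3.74% of all genes) and 2 in the lower (4.21%). Atp2a2, the calcium pump SERCA2, was at 0.15 (adjusted p = 0.425) and Ryr2, the calcium release channel, at 0.17 (adjusted p = 0.358). The 31 cardiac transcription factors had a median of 0.00, no call and no member with groups apart.

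Stress and growth lists gave no call. Of 45 mitotic genes, 39 were below 0 with a median of -0.08, and 9 had groups apart in the lower direction (6.34% of all genes). Without vector replicate 2 the median was -0.05. Cdk1, the kinase that starts mitosis, was at 43.4, 38.1 and 38.8 CPM against 33.1, 30.9 and 35.8 CPM (-0.27, edgeR adjusted p = 0.283). The DNA damage and p53 list had a median of 0.02 over 30 members; Gadd45a, a growth arrest gene, was at -0.22 (adjusted p = 0.4998), the stress gene Sesn1 at 0.22 (adjusted p = 0.590) and the bypass polymerase gene Polk at 0.19 (adjusted p = 0.605). The unfolded protein and integrated stress responses had 29 of 37 members below 0 and a median of -0.05. Groups were apart in the lower direction for 10 (6.34% of all genes) and in the higher for 2 (6.84%). An unadjusted p under 0.05 was found for 8 in the lower direction (4.21% of all genes) and 2 in the higher (3.74%). With the length trend removed the median of this list was -0.03, and without blank replicate 2 it was -0.07. Over all 49 lists, 46 had a tested member, 38 of these had a median within 0.1 of 0 on the log2 scale, and 2 held a called member.

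Firre and Ptbp1, the RNA and the splicing factor that the series is about, had overlapping groups. Firre was at 34.5, 37.6 and 30.5 CPM in the blank control and 33.0, 35.0 and 33.1 CPM in the vector control, with a log2 fold change of -0.02 (SE 0.08, 95% interval -0.18 to 0.14, edgeR adjusted p = 0.968). Ptbp1 was at 337, 302 and 320 CPM and 313, 286 and 309 CPM (-0.08, SE 0.05, interval -0.19 to 0.03, adjusted p = 0.745).

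In 1 fit of all 9 libraries, values of the Firre group could be set beside those of both controls. The comparisons share control libraries, so neither like nor opposite values in them are separate evidence. The negative vector libraries enter the first 2 contrasts given here with opposite signs, so noise in these libraries moves the 2 values in opposite directions. Ccl6 had -0.75 for the negative vector control minus the blank control and -6.47 for the Firre group minus the negative vector control, and Vwf had -0.38 and -3.37. The list medians for these contrasts, in the same order, were -0.48 and -4.19 for macrophage markers and -0.07 and 2.38 for interferon-stimulated genes. For epicardial markers they were 0.21 and -2.22, and for lipid synthesis 0.21 and -0.36. For the Firre group minus the blank control, the medians were -4.73 for macrophage markers and 2.23 for interferon-stimulated genes. In that contrast they were -1.78 for epicardial markers and -0.21 for lipid synthesis.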

How the data were processed

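The deposited values are raw counts per gene in 1 table, and per the submitters' processing notes the authors used FastQC, Trimmomatic, STAR and featureCounts on mm10; versions and strand setting were not given in the sources used here. Unassigned reads stand in lines named as HTSeq names them, so the counting program, and how it treated overlapping and multiply aligned reads, is not settled. Labels name the molecule as polyA although the protocol gives ribosomal RNA depletion. The 5 lines of unassigned reads (16.3% to 16.9% of each library) stayed out of library sizes and tests. Symbols, types and coordinates come from GENCODE M21, which held 55227 of 55487 identifiers; values of overlapping genes and of genes with near-identical copies are uncertain.

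Genes with at least 10 counts in 3 of the 6 libraries were tested with edgeR 4.0.16 (R 4.3.3, TMM scaling, robust quasi-likelihood F test, 4 residual degrees of freedom, no covariate), with Benjamini-Hochberg adjustment over all 15179 genes and a threshold of 0.05. CPM values use TMM-scaled library sizes, whose factors were 0.993 to 1.01. Fold changes are log2, negative vector control minus blank control. Replicates differed by more than sampling noise: over 10936 genes with a mean of at least 100 counts, chi-square per degree of freedom was 6.85 to 7.82 between blank libraries, 3.39 to 5.98 between vector libraries and 3.49 to 10.7 between groups. Blank replicate 2 had 5.52, 4.60 and 3.49 against vector replicates 1, 2 and 3, and 6.85 and 6.90 against blank replicates 1 and 3. Blank replicates 1 and 3 had 6.15 to 10.7 against the vector libraries. Any culture, vector or sequencing batch cannot be told apart from the group. The script was tested on simulated counts.

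The comparison, the 49 gene lists (1234 symbols, 1138 tested) and the rule for named genes were chosen with earlier results of these data known. The rule took Firre, Ptbp1, up to 8 called genes per direction by change (2 CPM or more in the higher group, groups apart), filled by p, 6 per direction by p, both only with an established symbol, which leaves out Gm4617, up to 3 called members of each list, and the 3 smallest p of 4 lists on interferon, sensing, inflammation and p53. Other scalings, filters, fits, DESeq2 1.42.0 and each library left out were tried as alternatives. Promoter windows and motif searches used RefSeq on GRCm38.p6.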

Additional observations from a re-analysis of the deposited data

How the results depend on the processing

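In the 15 alternatives, the 13 called genes kept their direction in 195 of 195 values and their call in 126. The count of 13 calls, none of them 2-fold, became 99 with 7 at least 2-fold without a low-count filter (26871 genes tested), 6 when all 9 libraries entered 1 fit, and 2 to 46 with 0 to 3 at least 2-fold when each library was left out in turn. The 2 calls came without negative vector replicate 2, 4 calls without blank replicate 1, 8 without negative vector replicate 1 and 46 without blank replicate 2; the cause was not tested. Without negative vector replicate 2, Vwf had an adjusted p of 0.0695, its only loss. DESeq2 called 19 genes, 13 of them the same. Upper quartile scaling called 15 lower and 0 higher, library totals alone 10 lower and 0 higher, and removal of the length trend 9 lower and 1 higher, without Mgp, Ifitm3, Gja4, Ahsg and Tnxb. With the replicate number as a block 26 genes were called, 13 of them the same. Deviations of same-numbered replicates had correlations of -0.11, 0.12 and -0.04, and those of differently numbered replicates ran from -0.14 to 0.19. With 3 libraries per group these values cannot settle whether the numbers pair the samples. Of 689 list medians, 651 moved by less than 1 SD between libraries. Genes under 1 CPM are limited by depth.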
